A study of Mus musculus with 9 samples.

Results

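The genes described here encode the machinery through which receptors coupled to heterotrimeric G proteins raise or lower cyclic AMP (cAMP) in mouse lung. They were chosen by name from the array's probe annotation: probe sets with 1 gene symbol that begins with Gna, with Gnb, Gng, Adcy, Pde or Rgs followed by a digit, or with Prka. The rule found 93 probe sets for 65 genes, of 12422 probe sets that were not controls and 8251 genes with 1 symbol. No measured value entered the rule. It follows the letters of the symbol, so it also takes in Gnasas1 (an antisense RNA of the Gnas locus), Pde4dip (myomegalin, a centrosomal and Golgi protein and not a phosphodiesterase), and Prkab1 and Prkag1 (subunits of the AMP-activated protein kinase). The gene IDs of all 93 probe sets matched a RefSeq table, and 0 symbols needed updating.

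A G protein consists of an alpha subunit that binds guanine nucleotide and a paired beta and gamma subunit. Gs alpha (Gnas) stimulates the adenylyl cyclases (Adcy) that make cAMP, whereas the Gi alpha proteins (Gnai1 to Gnai3, and the related Gnaz and Gnao1) inhibit several of them. Phosphodiesterases (Pde) break cyclic nucleotides down, cAMP releases the catalytic subunits of protein kinase A (Prkaca, Prkacb) from its regulatory subunits (Prkar), and most RGS proteins speed up the GTP hydrolysis that switches an alpha subunit off. EP3, a receptor of prostaglandin E2, acts mainly through Gi. In the lung cAMP is best known for relaxing airway smooth muscle, for restraining inflammatory cells and for tightening the endothelial barrier.

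Lung total RNA of C57BL6 mice was measured on 9 Affymetrix expression arrays in a model of asthma induced with ovalbumin (OVA, the egg-white allergen). The 3 arrays of agonist lung came from mice challenged with OVA and given an EP3 agonist, the 3 arrays of OVA lung from mice challenged with OVA alone, and the 3 arrays of saline lung from mice challenged with saline. The titles of both OVA-challenged groups carry a time of 24 h. Neither the compound, its dose and its timing nor the age and sex of the mice are stated in the labels. Whether the 3 arrays of each group came from separate mice is not stated either, and p-values then measure the spread between these samples, which may be technical. The deposited intensities (the brightness of a probe set on a linear scale) were brought to 1 common level per array, and all intensities below are on that scale, listed in the order of replicates 1, 2 and 3. Testing required an intensity above 44.7, the detection limit, on 3 or more of the 9 arrays. This held for 59 member probe sets (46 genes) and for 7920 probe sets over the whole array. Differences are log2 changes ± their standard error from 1 limma fit of the 9 arrays, and two-sided p-values were adjusted over all 7920 and held against 0.05. On each array 59.6% to 60.6% of probe sets lay above the detection limit. That limit is the 40th percentile of the intensities of all arrays, so shares in this range follow largely from its definition. Surfactant protein C (Sftpc), made by alveolar type 2 cells, gave 13955, 13842 and 14325 in agonist lung, 10138, 13333 and 10882 in OVA lung, and 12004, 14984 and 14673 in saline lung. An intensity depends on the probes, so levels are compared within a probe set and not between probe sets.

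The stretches of 250 bases before the transcription start are shown for the 3 genes that passed the test and for Rgs2, whose agonist arrays lay above all others. They are RefSeq sequences of build GRCm38.p6, given 5′ to 3′ on the strand of the gene, with the letters TGACG or CGTCA in capitals. These letters are the core of the cAMP response element TGACGTCA on either strand, and they also lie within it.
Rgs2, chr1:144004150-144004399, minus strand: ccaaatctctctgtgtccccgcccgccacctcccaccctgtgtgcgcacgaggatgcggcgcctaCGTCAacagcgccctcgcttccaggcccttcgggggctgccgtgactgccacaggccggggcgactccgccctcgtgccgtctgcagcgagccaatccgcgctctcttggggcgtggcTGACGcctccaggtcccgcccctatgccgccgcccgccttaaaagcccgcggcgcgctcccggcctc
Adcy4, chr14:55784073-55784322, minus strand: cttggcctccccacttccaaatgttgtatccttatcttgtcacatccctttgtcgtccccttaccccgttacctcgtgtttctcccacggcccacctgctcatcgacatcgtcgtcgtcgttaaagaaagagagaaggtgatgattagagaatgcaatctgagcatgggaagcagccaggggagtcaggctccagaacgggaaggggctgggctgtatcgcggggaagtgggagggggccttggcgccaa
Gnao1, chr8:93810588-93810837, plus strand: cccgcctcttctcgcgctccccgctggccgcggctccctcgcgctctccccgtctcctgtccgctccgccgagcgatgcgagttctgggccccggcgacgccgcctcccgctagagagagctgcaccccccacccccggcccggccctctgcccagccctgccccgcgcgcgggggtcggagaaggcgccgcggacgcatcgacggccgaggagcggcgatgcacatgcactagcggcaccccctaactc
Rgs19, chr2:181693978-181694227, minus strand: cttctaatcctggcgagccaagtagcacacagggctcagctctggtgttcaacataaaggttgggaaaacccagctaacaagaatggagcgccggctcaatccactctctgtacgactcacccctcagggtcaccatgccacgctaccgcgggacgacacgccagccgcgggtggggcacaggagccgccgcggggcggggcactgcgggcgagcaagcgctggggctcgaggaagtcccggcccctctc
The Rgs19 stretch belongs to the most upstream of its 3 annotated starts. The core lay at 2 places before Rgs2, beginning 185 bases (CGTCA) and 67 bases (TGACG) before the start, and at 0 places before Adcy4, Gnao1 and Rgs19. RefSeq stretches were found for 50 of the 65 genes, 86 in all because some genes have several starts. The core was present in 23.3% (20 of 86) of them, beside 17.8% (5836) of 32851 stretches of the same length over all genes. Rgs2 was not alone in holding it at 2 places: so did a stretch each of Gnb1, Gng4, Prkaca and Rgs4, and a stretch of Prkar1a held it at 3. The full element was present in 1 member stretch, before Prkar1a, which is 1.16% beside 1.55% over all genes. A match is a description of letters and not a site that a factor was shown to use.

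Few of these probe sets passed the test, and one that did not pass was not shown to be unchanged. In OVA lung against saline lung 3 of 59 member probe sets passed the test (5.08%), where 9.49% of all 7920 did: Adcy4 and Gnao1 fell and Rgs19 rose, by 1.43-, 1.35- and 1.33-fold. By direction that is 2 lower (3.39%, beside 4.42% of all) and 1 higher (1.69%, beside 5.08%). Before adjustment p lay under 0.05 for 20 member probe sets (33.9%, beside 29.1% of all). Of these 13 were lower in OVA lung (22%, beside 17% of all) and 7 higher (11.9%, beside 12.1%). The groups did not overlap for 23 (39%, beside 37.6%), 16 lower (27.1%, beside 22%) and 7 higher (11.9%, beside 15.5%). In agonist lung against OVA lung 0 of 59 passed limma's test, where 2.75% of all did. Before adjustment p lay under 0.05 for 18 (30.5%, beside 24.2% of all), 11 higher (18.6%, beside 14.2%) and 7 lower (11.9%, beside 10.1%). The groups did not overlap for 23 (39%, beside 29.9%), 14 higher (23.7%, beside 17.8%) and 9 lower (15.3%, beside 12%). Adcy4, Gnao1 and Rgs2 passed as higher there under 4 of 20 alternatives (a floor at the detection limit, a stricter filter, an intensity trend with a robust prior, and array weights) and under no other. In agonist lung against saline lung 0 of 59 passed limma's test, where 0.0758% of all did. There 4 had an unadjusted p under 0.05 (6.78%, beside 7.71% of all), 3 higher (5.08%, beside 3.62%) and 1 lower (1.69%, beside 4.09%), and 6 did not overlap (10.2%, beside 13.7%), 3 higher and 3 lower (beside 6.63% and 7.06%). Each of these shares is a description of members that were chosen by name. Fewer cells of a type and less RNA per cell cannot be told apart in whole lung.

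The median log2 change of the 59 member probe sets was -0.09 in OVA lung against saline lung, beside -0.08 over all tested. It was 0.08 in agonist lung against OVA lung, beside 0.06 over all, and -0.04 in agonist lung against saline lung, beside -0.003. The first pair of comparisons shares the 3 OVA arrays, and a chance deviation of those arrays enters both with opposite sign. The values of each gene are therefore given side by side, and their opposition is not read as a result.

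**Figure D1:**
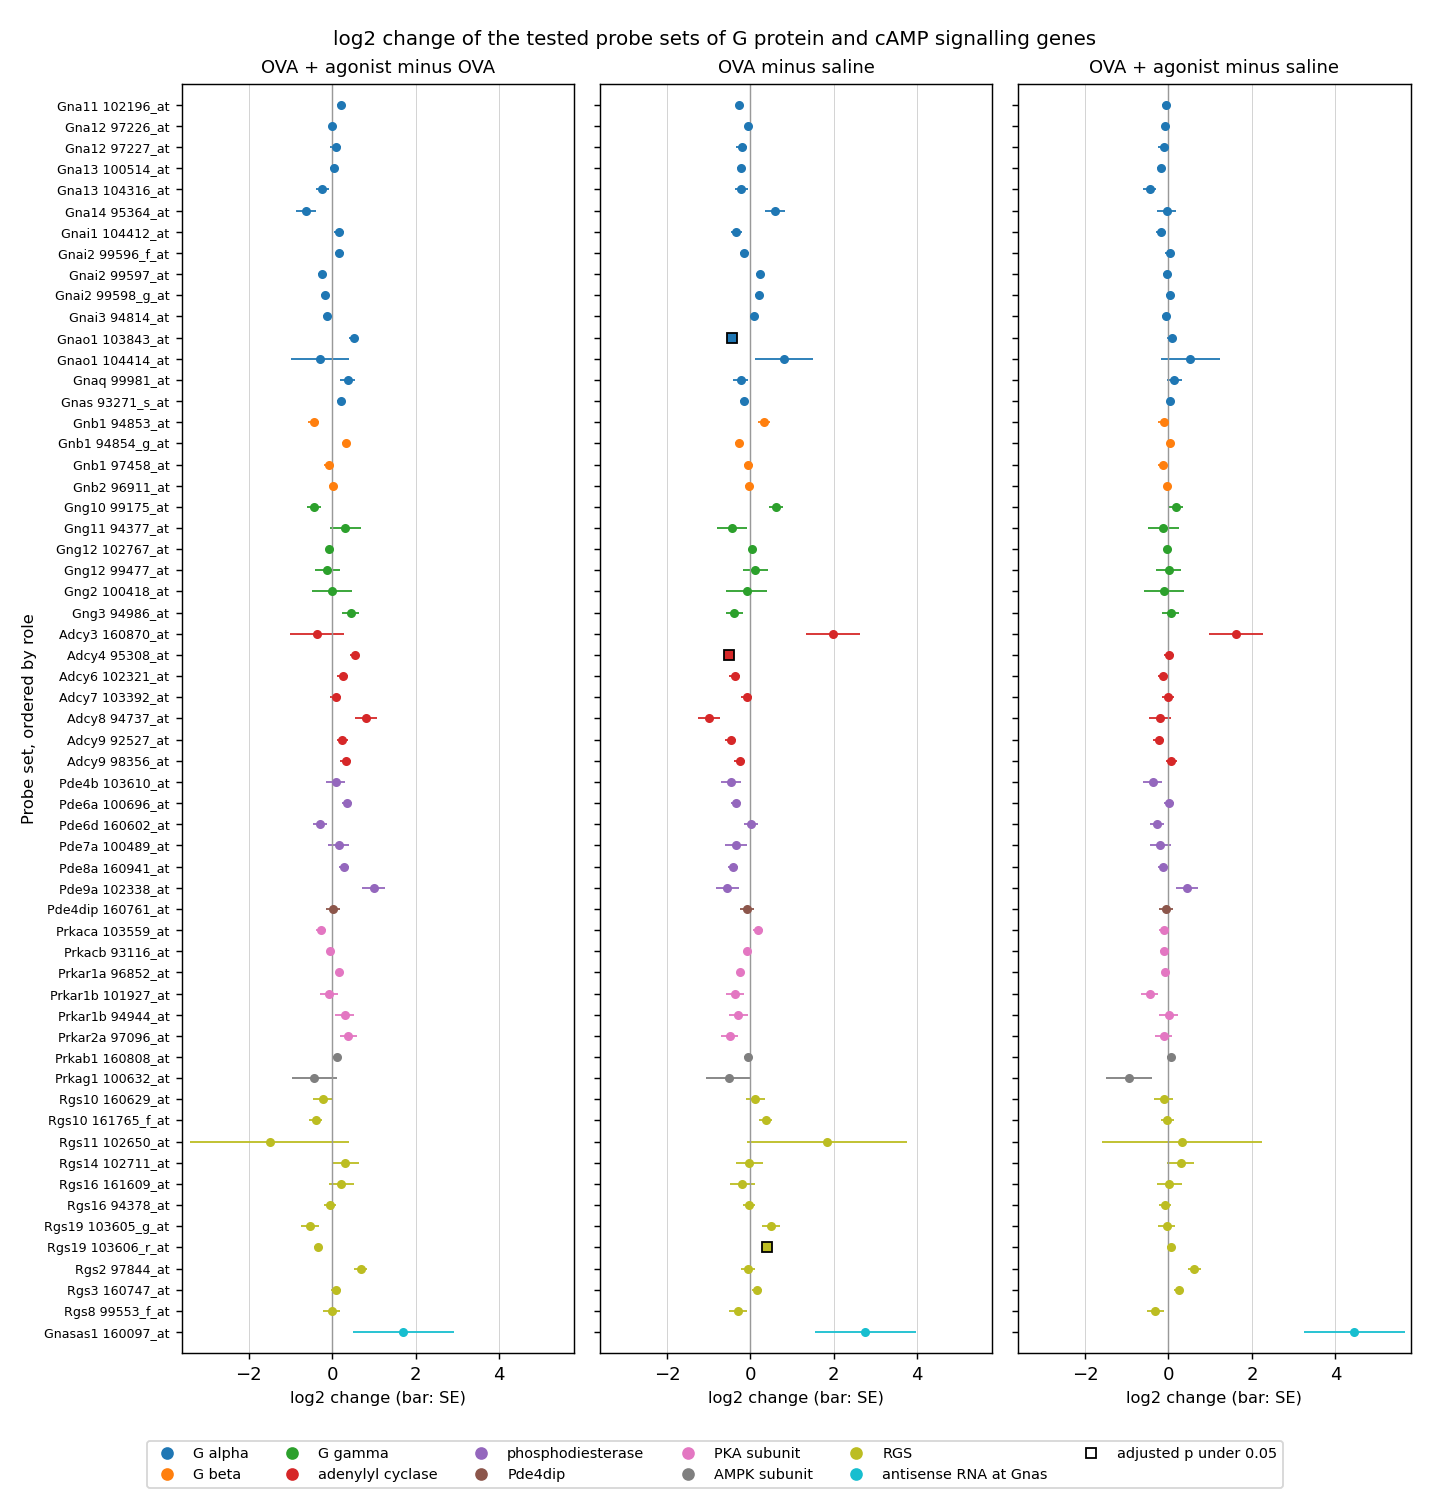
Log2 change (horizontal, ± standard error) of each of the 59 tested member probe sets, ordered by role, in agonist minus OVA (left), OVA minus saline (middle) and agonist minus saline (right). Squares mark an adjusted p under 0.05: 0 in the left panel, 3 in the middle panel (Adcy4, Gnao1 and Rgs19) and 0 in the right panel, and most circles sit within 0.5 of 0.

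Gnai1, Gnai2 and Gnai3 each had a tested probe set, and none passed in any comparison. Gnai2, the most widely expressed Gi alpha of leukocytes and endothelium, has 3 probe sets here that did not run the same way. Probe set 99597_at gave 439, 481 and 476 in agonist lung, 582, 523 and 561 in OVA lung, and 451, 522 and 455 in saline lung, a log2 change of 0.23 ± 0.09 in OVA lung against saline lung (adjusted p = 0.16) and of -0.26 ± 0.09 in agonist lung against OVA lung (adjusted p = 0.153). All 3 OVA arrays lay above the 6 other arrays, the highest of which was saline replicate 2. Probe set 99598_g_at had the same signs, but its OVA and saline arrays overlapped, at 1915 ± 50.8 in agonist lung, 2158 ± 158 in OVA lung and 1881 ± 139.6 in saline lung (SD, n = 3 each). Probe set 99596_f_at, whose suffix marks probes shared within a sequence family, had the opposite signs, at 6322 ± 292 in agonist lung, 5633 ± 495 in OVA lung and 6217 ± 581 in saline lung, and its groups overlapped.

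Gnai1, a Gi alpha of many tissues, gave 152, 163 and 123 in agonist lung, 124, 123 and 143 in OVA lung, and 175, 156 and 162 in saline lung on probe set 104412_at. Its OVA arrays lay below the saline arrays, by -0.34 ± 0.13 on the log2 scale (adjusted p = 0.125), and agonist replicate 3 fell among the OVA arrays. Its other probe set, 97195_at, exceeded the detection limit on 2 agonist arrays alone and was not tested. Gnai3 gave 700.2, 684 and 723 in agonist lung, 759, 814 and 740.5 in OVA lung, and 719, 677 and 799 in saline lung, with the agonist arrays below the OVA arrays (-0.13 ± 0.09, adjusted p = 0.399) and with overlapping OVA and saline arrays (0.08 ± 0.09, adjusted p = 0.605). Gnaz, the Gi-type alpha of platelets and neurons, reached 11.4 at most and was not tested.

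Gnao1 encodes Go alpha, the Gi-type subunit of neurons that heart muscle also makes, and 1 of its 5 probe sets passed the test. Probe set 103843_at gave 247, 289 and 268 in agonist lung, 169.6, 204 and 192 in OVA lung, and 234, 253 and 272 in saline lung. The 3 OVA arrays lay below the 6 others, and the intensity was 1.35-fold lower than in saline lung (-0.43 ± 0.11, adjusted p = 0.0492). Agonist lung stood at 0.51 ± 0.11 against OVA lung (adjusted p = 0.0544) and at 0.08 ± 0.11 against saline lung (adjusted p = 0.896). The other tested probe set, 104414_at, ran from 30.6 to 210.3 with every group overlapping (0.81 ± 0.70 in OVA lung against saline lung, adjusted p = 0.476), and the mean of both turned the direction to 0.19 (adjusted p = 0.739). Of the remaining 3 probe sets 161902_f_at ran from 24.03 to 50.03 around the detection limit, and the other two reached 6.79 at most. The call ended when any single array of the 9 was left out (adjusted p from 0.0562 to 0.151). Over 20 alternatives it was kept in 5, with an adjusted p from 0.0307 to 0.739.

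Markers of heart muscle, which makes Go alpha, were detected in these lung samples, and most were lower in OVA lung too. Of 9 tested heart muscle markers 5 passed as lower in OVA lung and 0 as higher. The 10 heart muscle genes summed to 4512 to 5233 in agonist lung, 3411 to 4193 in OVA lung and 4514 to 5529 in saline lung. Actc1, the brightest of these genes, gave 1990, 2771 and 2486 in OVA lung, against 2248, 2054 and 2583 in saline lung. Its OVA and saline arrays overlapped, with a log2 change of 0.07 ± 0.14 (adjusted p = 0.789). The suffix of its probe set marks probes shared within a sequence family. Of 2 tested neuron markers 0 passed, the other 5 (Snap25, Syp, Nefl, Nefm and Syt1) lay below the detection limit on all 9 arrays, and the sum of all 7 genes was 394 to 519 in agonist lung, 338 to 381 in OVA lung and 495 to 544 in saline lung. The part of such cells in the Gnao1 value was not tested.

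**Figure D2:**
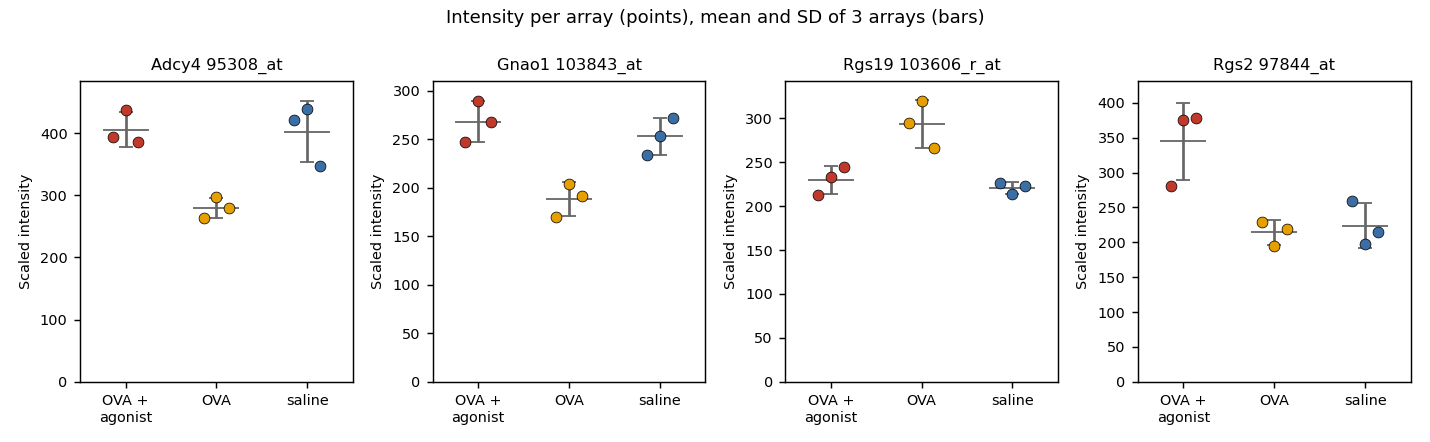
Scaled intensity (vertical, linear from 0) of Adcy4, Gnao1, Rgs19 and Rgs2 on each of the 9 arrays, with the mean and SD of 3 arrays, for agonist lung (left), OVA lung (middle) and saline lung (right). The OVA arrays are the lowest for Adcy4 and Gnao1 and the highest for Rgs19, and the agonist arrays are the highest for Rgs2, at 280.5 to 379.

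Gs alpha did not pass in any comparison. Its bright Gnas probe set, 93271_s_at, gave 5478, 5352 and 5117 in agonist lung, 4612, 4884 and 4394 in OVA lung, and 4815, 5227 and 5453 in saline lung. All agonist arrays lay above all OVA arrays, by 0.20 ± 0.09 on the log2 scale (adjusted p = 0.202), while OVA and saline arrays overlapped (-0.16 ± 0.09, adjusted p = 0.261). The other Gnas probe sets, 102082_at and 92672_at, reached 15.4 at most and were not tested. Gnasas1, the antisense transcript that starts near one of the Gnas promoters, gave 84.2, 107 and 89.7 in agonist lung, 0.89, 79.3 and 95.3 in OVA lung, and 2.41, 7.97 and -33.2 in saline lung. Its agonist arrays were all above the detection limit and its saline arrays all below it, at least 2.08-fold higher in agonist lung, with an unadjusted p of 0.00656 (adjusted p = 0.432). OVA replicate 1 read 0.89 where the other 2 OVA arrays read 79.3 and 95.3, and without that array the difference between agonist and saline lung passed (adjusted p = 0.0216). That array belongs to neither group compared and enters the spread of the fit. The common scale, the floor, the detection limit, the filter and the adjustment were also recomputed without it. The saline readings of 2.41 and -33.2 lie under the floor of 3.10 and were raised to it. The difference between agonist and saline lung passed in 1 of 19 alternatives, with an adjusted p of up to 0.733.

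The alpha subunits of the Gq and G12 classes had small differences, none of which passed. Gna11, a Gq-type subunit, gave 174, 198 and 185 in agonist lung, 161, 158 and 164 in OVA lung, and 202, 183 and 195 in saline lung on probe set 102196_at, with the OVA arrays below the 6 others (-0.26 ± 0.08 against saline lung, adjusted p = 0.0865). Gna14, another Gq-type subunit, gave 27.8, 41.7 and 46.3 in agonist lung, 73.5, 52.3 and 51.9 in OVA lung, and 46.4, 34.9 and 36.2 in saline lung, near the detection limit, and its OVA arrays lay above the 6 others (0.59 ± 0.23 against saline lung, adjusted p = 0.141). Gnaq gave 66.5 ± 13.5 in agonist lung, 50.9 ± 5.76 in OVA lung and 59.8 ± 8.37 in saline lung (SD, n = 3 each), with overlapping groups in all 3 comparisons. Gna13, a subunit of the G12 class, gave 428, 414 and 466 in OVA lung, against 533, 487 and 503 in saline lung on probe set 100514_at (-0.22 ± 0.09, adjusted p = 0.161).

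On its probe set 104316_at Gna13 gave 216, 183 and 197 in agonist lung, against 292, 289 and 237 in saline lung, where it was the only member with an unadjusted p under 0.05 that was lower in agonist lung (-0.45 ± 0.15, adjusted p = 0.522). Gna12, its close relative, had log2 changes between -0.20 and 0.09 over its 2 probe sets and the 3 comparisons. Gna15, a Gq-type subunit of blood cells, and the transducins of photoreceptors, Gnat1 and Gnat2, did not pass the filter. The median over the 15 tested G alpha probe sets was -0.16 in OVA lung against saline lung, with 10 of 15 negative, beside -0.08 and 59.96% negative over all tested probe sets.

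**Figure D3:**
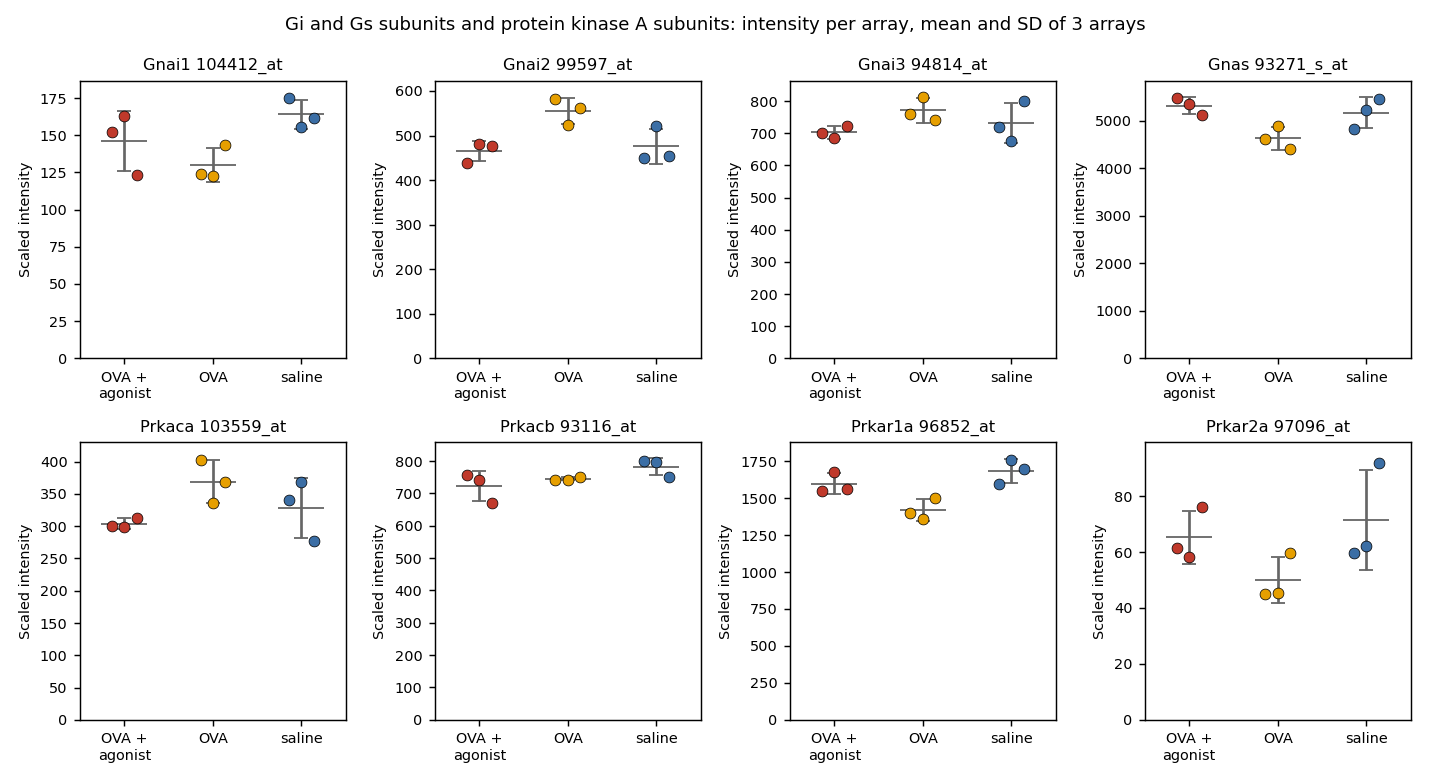
Scaled intensity (vertical, linear from 0) of Gi alpha, Gs alpha and protein kinase A subunits on each array with the mean and SD of 3 arrays, for agonist lung (left), OVA lung (middle) and saline lung (right). None passed the test, the OVA arrays of Gnai2 99597_at lie highest, and those of Prkar1a lie lowest, at 1361 to 1501.

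Beta subunits were measured for 2 genes of 5, and the probe sets of Gnb1 contradicted each other. Gnb1 encodes the beta subunit that most alpha subunits pair with. Probe set 94853_at gave 167, 185 and 132 in agonist lung, 219, 235 and 201 in OVA lung, and 180.0, 178 and 163 in saline lung, with OVA lung above both other groups (0.33 ± 0.14 against saline lung, adjusted p = 0.158, and -0.45 ± 0.14 in agonist lung against OVA lung, adjusted p = 0.104). Probe set 94854_g_at gave 377, 366 and 337 in agonist lung, 269, 285 and 309 in OVA lung, and 353, 347 and 346 in saline lung, with OVA lung below both (-0.28 ± 0.09, adjusted p = 0.0807, and 0.32 ± 0.09, adjusted p = 0.0802). In neither did the OVA arrays overlap the others, so the disagreement is larger than the spread between arrays. The remaining probe set, 97458_at, gave 399 ± 7.34 in agonist lung, 424 ± 23.5 in OVA lung and 442 ± 54.7 in saline lung with overlapping OVA and saline arrays.

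The mean of the 3 Gnb1 probe sets showed -0.001 of log2 change in OVA lung against saline lung. Across the 11 members with several tested probe sets, the probe sets of 3 genes differed in sign in OVA lung against saline lung, those of 7 in agonist lung against OVA lung and those of 7 in agonist lung against saline lung. Gnb2, the other beta subunit above the limit, gave 1516 ± 53.4 in agonist lung, 1513 ± 136 in OVA lung and 1542 ± 49.4 in saline lung (-0.03 ± 0.09 in OVA lung against saline lung). Gnb3, Gnb4 and Gnb5 were not tested.

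**Figure D4:**
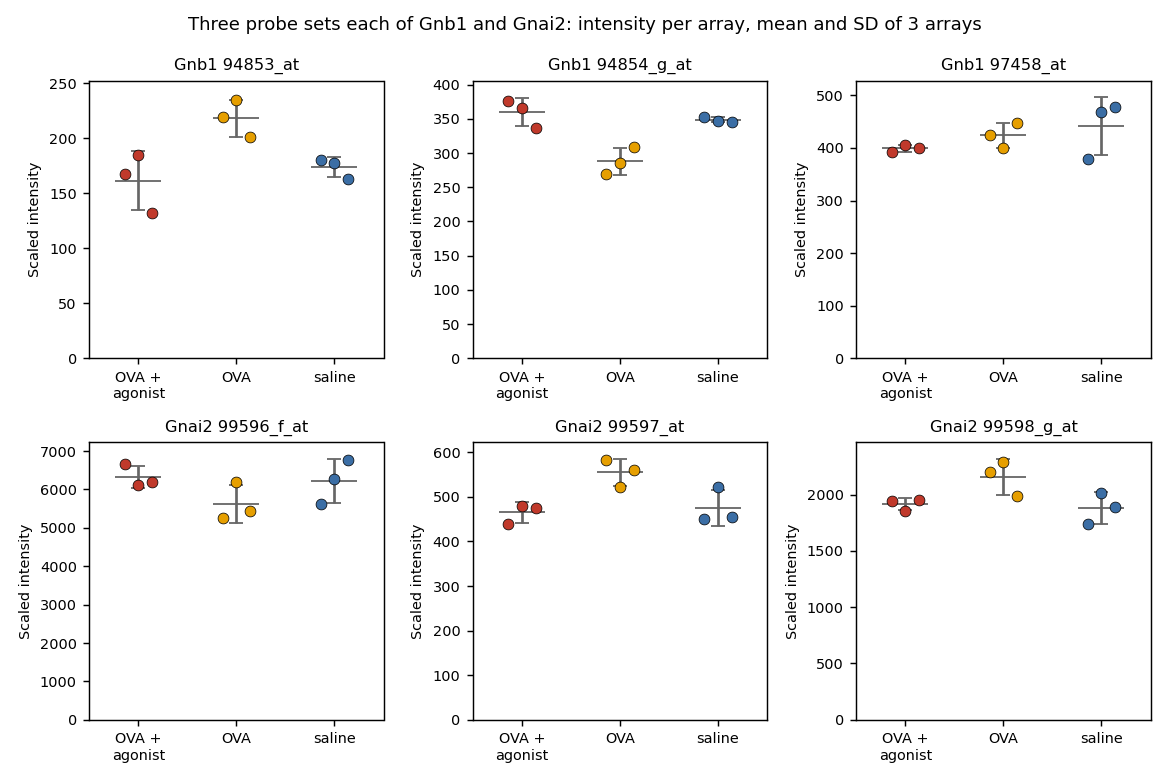
Scaled intensity (vertical, linear from 0) on each array of the 3 tested probe sets of Gnb1 (upper row) and of Gnai2 (lower row), with the mean and SD of 3 arrays, for agonist lung (left), OVA lung (middle) and saline lung (right). OVA lung is highest on Gnb1 94853_at, at 201 to 235, and lowest on Gnb1 94854_g_at, at 269 to 309.

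Of the gamma subunits, which anchor the beta-gamma pair to the membrane, Gng10 came nearest to the threshold. It gave 285, 246 and 311 in agonist lung, 364, 368 and 396 in OVA lung, and 208, 316 and 228 in saline lung. All OVA arrays exceeded the 6 others, by 0.61 ± 0.17 on the log2 scale against saline lung (adjusted p = 0.0606), and agonist lung stood at -0.43 ± 0.17 against OVA lung (adjusted p = 0.172). Saline replicate 2, at 316, was the saline array closest to OVA lung. The difference passed in 4 of 20 alternatives, among them the omission of that array (adjusted p = 0.0447). Over all 20 the adjusted p ran from 0.0393 to 0.157. The tested probe sets of Gng2, Gng3, Gng11 and Gng12 had no unadjusted p under 0.05 in any comparison, and Gng4 was not tested.

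Of 7 tested adenylyl cyclase probe sets 1 passed, that of Adcy4, as lower in OVA lung against saline lung, as 4.42% of all tested probe sets did. Adcy4 makes cAMP and answers to Gs and beta-gamma. It gave 394, 437 and 385 in agonist lung, 263, 296 and 279 in OVA lung, and 421, 439 and 347 in saline lung. The OVA arrays lay below all 6 others and did not overlap them, and the mean was 1.43-fold lower than in saline lung (-0.52 ± 0.11, adjusted p = 0.0345). In agonist lung the mean was 405 ± 27.7, against 279.5 ± 16.5 in OVA lung, 1.45-fold higher without passing (0.54 ± 0.11, unadjusted p = 0.00171, adjusted p = 0.0544). Agonist and saline lung overlapped (0.02 ± 0.11, adjusted p = 0.982). The fall against saline lung lost its call without saline replicate 1 or 2, or without any of the OVA arrays (adjusted p from 0.068 to 0.118), and with the number in the titles as a blocking term (adjusted p = 0.0659). Over 20 alternatives it kept the call in 13, with an adjusted p from 0.0201 to 0.118.

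Adcy4 is known as a cyclase of endothelium among other tissues, and endothelial markers were lower in the same arrays. Of 10 such genes 6 passed as lower in OVA lung against saline lung (beside 4.42% of all tested probe sets) and 0 as higher. In agonist lung against OVA lung 3 passed as higher, where 2.75% of all passed in either direction. Their summed intensity ran from 11804 to 12893 in agonist lung, from 9285 to 9995 in OVA lung and from 12250 to 12706 in saline lung. VE-cadherin (Cdh5), which joins endothelial cells to each other, gave 2421, 2491 and 2307 in agonist lung, 1642, 1739.8 and 1921 in OVA lung, and 2405, 2589 and 2581 in saline lung, a log2 change of -0.52 ± 0.09 in OVA lung against saline lung. Adcy4 changed by -0.52 ± 0.11 in that comparison. Other genes of the list differed: Vwf stood at 0.42 ± 0.14 (adjusted p = 0.0977), Pecam1 at -0.04 ± 0.19 and Emcn at -0.18 ± 0.11. Markers of some other cells were lower in OVA lung too. Of 5 tested alveolar type 1 markers 4 passed as lower and 0 as higher, and of 3 tested red cell markers 2 passed as lower and 0 as higher. The part of endothelial content in the Adcy4 value was not tested.

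Adcy3, a cyclase first known from olfactory neurons, was the 1 cyclase probe set of 7 with a positive log2 change in OVA lung against saline lung. It gave 131, 117 and 28.4 in agonist lung, 92.4, 113 and 88.6 in OVA lung, and 34.2, 36.8 and 12.1 in saline lung. The OVA arrays were all above the detection limit and the saline arrays all below it, at least 2.18-fold higher in OVA lung (adjusted p = 0.0899). Agonist replicate 3 read 28.4, below the limit, and agonist replicates 1 and 2 lay above the OVA arrays. Without agonist replicate 3 in the fit the difference between OVA and saline lung passed (adjusted p = 0.031), though that array belongs to neither group compared. The difference passed in 1 of 19 alternatives, with an adjusted p of up to 0.2135.

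None of the other cyclases passed in any comparison. Adcy8, a calcium-stimulated cyclase, gave 65, 68.4 and 64.1 in agonist lung, 24.5, 53.7 and 40.9 in OVA lung, and 74.6, 65.6 and 87.9 in saline lung, low intensities on either side of the detection limit, with all OVA arrays below the 6 others (-1.0 ± 0.26 against saline lung, adjusted p = 0.0555). Adcy9, a widely expressed cyclase, gave 293, 269.8 and 284 in agonist lung, 223, 274 and 224 in OVA lung, and 369.6, 282 and 352 in saline lung on probe set 92527_at (-0.47 ± 0.13 in OVA lung against saline lung, adjusted p = 0.0628). Its other probe set, 98356_at, gave 314, 279.8 and 261 in agonist lung, 249.6, 191 and 245 in OVA lung, and 295, 270.0 and 251 in saline lung, with OVA lung below both other groups (-0.26 ± 0.13 and adjusted p = 0.238 against saline lung). Both probe sets of this gene thus had the same sign in each comparison with OVA lung. In agonist lung against saline lung their signs differed, at -0.24 for 92527_at and 0.07 for 98356_at.

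Adcy6, a cyclase that Gi and calcium inhibit, gave 246, 279.8 and 209 in agonist lung, 185, 209 and 223 in OVA lung, and 276, 271 and 252 in saline lung (-0.38 ± 0.13 in OVA lung against saline lung, adjusted p = 0.1). Adcy7, the cyclase of blood cells, gave 293, 355 and 301 in agonist lung, 288, 302 and 307 in OVA lung, and 266, 326 and 371 in saline lung, with overlapping groups (-0.09 ± 0.14, adjusted p = 0.697). Adcy2 stayed at or below the detection limit on 8 of 9 arrays and was not tested. Over the 7 tested cyclase probe sets the median log2 change was -0.38 in OVA lung against saline lung, with 6 of 7 negative, and 0.25 in agonist lung against OVA lung, with 6 of 7 positive. Over all 7920 probe sets the median was -0.08 with 59.96% negative in OVA lung against saline lung, and 0.06 with 58.2% positive in agonist lung against OVA lung, and the OVA arrays enter both.

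Of 6 tested phosphodiesterase probe sets 0 passed in any comparison. Their median log2 change was -0.38 in OVA lung against saline lung, with 5 of 6 negative beside 59.96% of all tested probe sets. It was 0.22 in agonist lung against OVA lung, which shares the OVA arrays, with 5 of 6 positive beside 58.2% of all. Pde8a, an enzyme with high affinity for cAMP, gave 109, 129.6 and 105 in agonist lung, 96.5, 90.1 and 93.6 in OVA lung, and 139, 111 and 124 in saline lung. Its OVA arrays were close together and below the 6 others (-0.41 ± 0.12 against saline lung, adjusted p = 0.0655, and 0.29 ± 0.12 in agonist lung against OVA lung, adjusted p = 0.184). Pde6a, a subunit of the photoreceptor cGMP phosphodiesterase, gave 155, 179 and 158 in agonist lung, 115, 152 and 121 in OVA lung, and 154, 174 and 161 in saline lung (-0.35 ± 0.13 in OVA lung against saline lung, adjusted p = 0.12).

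Pde9a, which breaks down cGMP, gave 107, 86.1 and 67.7 in agonist lung, 47.7, 31.3 and 53.5 in OVA lung, and 70.6, 48.9 and 72.4 in saline lung. Every agonist array exceeded every OVA array, by 0.99 ± 0.26 on the log2 scale (adjusted p = 0.0808), the largest log2 difference in agonist lung against OVA lung among members with an unadjusted p under 0.05. Pde4b, the cAMP phosphodiesterase of leukocytes that is a target of anti-inflammatory drugs, gave 76, 139 and 90.1 in agonist lung, 87.3, 111 and 81.9 in OVA lung, and 116, 145 and 124 in saline lung. Its OVA arrays lay below the saline arrays (-0.47 ± 0.23, adjusted p = 0.223), and its agonist arrays spanned both groups. It was the only member of the Pde4 family under the naming rule, and no Pde3 gene was. Pde6d and Pde7a had no unadjusted p under 0.05, and Pde1a, Pde1b, Pde1c, Pde6b and Pde6g did not pass the filter.

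Protein kinase A, the main effector of cAMP, did not pass for any subunit. Prkar1a, the regulatory subunit found in most cells, gave 1550.2, 1681 and 1561 in agonist lung, 1399.7, 1361 and 1501 in OVA lung, and 1595, 1760.3 and 1696 in saline lung. The OVA arrays lay below the 6 others, by -0.25 ± 0.08 on the log2 scale against saline lung (adjusted p = 0.1). Prkar2a, a regulatory subunit that anchoring proteins hold at membranes, gave 61.6, 58.3 and 76.1 in agonist lung, 45, 45.5 and 59.6 in OVA lung, and 59.8, 62.2 and 92 in saline lung (-0.50 ± 0.20 in OVA lung against saline lung, adjusted p = 0.154). Replicate 3 was its highest array in all 3 groups, and its highest OVA array, at 59.6, lay just below its lowest saline array, at 59.8.

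Prkaca gave 300.4, 298 and 313 in agonist lung, 403, 336 and 368 in OVA lung, and 340.2, 368 and 276 in saline lung, with overlapping OVA and saline arrays (0.18 ± 0.12, adjusted p = 0.384) and agonist arrays below the OVA arrays (-0.28 ± 0.12, adjusted p = 0.223). Prkacb gave 758, 740.4 and 669.9 in agonist lung, 743, 742 and 751 in OVA lung, and 801, 796 and 752 in saline lung (-0.07 ± 0.08 in OVA lung against saline lung, adjusted p = 0.597). Prkar1b, a regulatory subunit of nervous tissue, gave 269.5 ± 50.4 in agonist lung, 289 ± 72.8 in OVA lung and 364 ± 22.8 in saline lung on probe set 101927_at and 227 ± 19.6 in agonist lung, 185 ± 14.6 in OVA lung and 235 ± 71.9 in saline lung on probe set 94944_at (SD, n = 3 each), and neither had an unadjusted p under 0.05. The AMP-activated kinase subunits Prkab1 and Prkag1 had none either. Their adjusted p in OVA lung against saline lung was 0.709 and 0.566.

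Of 11 tested RGS probe sets 1 passed, as higher in OVA lung against saline lung, as 5.08% of all tested probe sets did. Rgs19, also called GAIP, binds Gi alpha subunits and speeds up their inactivation. Its probe set 103606_r_at, whose suffix marks relaxed rules of probe choice, gave 213, 233 and 244 in agonist lung, 295, 320.0 and 266 in OVA lung, and 226, 213 and 223 in saline lung. The OVA arrays lay above the 6 others, 1.33-fold higher than in saline lung (0.41 ± 0.10, adjusted p = 0.0424), and agonist lung stood at -0.35 ± 0.10 against OVA lung (adjusted p = 0.088). Its probe set 103605_g_at gave 56.3, 80.9 and 102 in agonist lung, 125, 116 and 96.7 in OVA lung, and 75.2, 86.5 and 78.5 in saline lung and had the same signs without passing (0.49 ± 0.21 in OVA lung against saline lung, adjusted p = 0.177). The remaining probe set, 103604_at, was below the detection limit on all 9 arrays. The call ended without any single saline array, without OVA replicate 1 or 2 or without agonist replicate 2 (adjusted p from 0.0655 to 0.126), and over 20 alternatives it was kept in 11, with an adjusted p from 0.0254 to 0.126.

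Most macrophage and dendritic cell markers were higher in the same arrays as Rgs19. Of 13 tested markers 9 passed as higher and 1 as lower in OVA lung against saline lung, beside 5.08% and 4.42% of all tested probe sets. In agonist lung against OVA lung 3 passed as lower and 1 as higher, where 2.75% of all passed in either direction. The 14 genes summed to 9002 to 10677 in agonist lung, 11998 to 12572 in OVA lung and 7817 to 8585 in saline lung. C1qb, a complement chain made by macrophages, gave 193, 173 and 367 in agonist lung, 749, 702 and 691 in OVA lung, and 132, 145 and 129 in saline lung. The brightest probe set of the list ran the other way: Lyz2, a lysozyme of macrophages that alveolar type 2 cells also make, gave 6099, 6343 and 6062 in agonist lung, 3637, 4208 and 4645 in OVA lung, and 5148, 5884 and 5727 in saline lung, lower in OVA lung than in saline lung (-0.43 ± 0.11, adjusted p = 0.0492) and higher in agonist lung than in OVA lung (0.57 ± 0.11, adjusted p = 0.0444). The part of these cells in the Rgs19 value was not tested. Rgs10, an RGS protein of macrophages and lymphocytes, gave 313, 335 and 379.7 in agonist lung, 374, 496 and 493 in OVA lung, and 313, 329 and 409 in saline lung on probe set 161765_f_at (0.37 ± 0.16 in OVA lung against saline lung, adjusted p = 0.162), where OVA replicate 1 lay within the saline range. The suffix of 161765_f_at marks probes shared within a sequence family. The other tested probe set of Rgs10, 160629_at, stood at 0.12 ± 0.23 in OVA lung against saline lung (adjusted p = 0.761), and its groups overlapped. A further probe set, 103384_at, lay below 0 on all 9 arrays and was not tested.

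Rgs2, which acts mainly on Gq and whose gene is known to be induced by cAMP in several cell types, gave 280.5, 375 and 379 in agonist lung, 229, 194 and 219 in OVA lung, and 259, 197 and 215 in saline lung. All 3 agonist arrays lay above the 6 other arrays. Rgs2 was the 1 tested member of 59 (1.69%) with that pattern, which 1.78% of all tested probe sets had, and 0 members had all agonist arrays below the others (1.45% of all). The level was 1.6-fold that of OVA lung (0.68 ± 0.16, unadjusted p = 0.00284, adjusted p = 0.064) and 1.54-fold that of saline lung (0.62 ± 0.16, unadjusted p = 0.00461, adjusted p = 0.409). OVA and saline lung did not separate (-0.06 ± 0.16, adjusted p = 0.84). Agonist replicate 1, at 280.5, was the agonist array nearest to saline replicate 1, at 259.

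Neutrophil markers differed among the agonist arrays. The 9 marker genes summed to 5608, 1563 and 6006 in agonist lung, 3768, 4189 and 2986 in OVA lung, and 1510, 1560 and 1532 in saline lung, and S100a8, a calcium-binding protein of neutrophils, gave 2281, 287 and 2026 in agonist lung, 421, 323 and 281 in OVA lung, and 403, 259 and 314 in saline lung. In OVA lung most of the sum came from 1 gene, Lcn2, at 2608, 2946 and 2000, against 497, 548 and 572 in saline lung. Lcn2 was the 1 of 7 tested markers that passed there, and S100a8 and S100a9 stood at 0.08 ± 0.72 and 0.01 ± 0.84 in OVA lung against saline lung. The neutrophil sum was highest on agonist replicate 3, where Rgs2 was highest too, and it stood near saline lung on agonist replicate 2, where Rgs2 read 375. The sum includes Ngp, which lay below 0 on all 9 arrays. Ngp read -184, -397 and -261 in agonist lung, -212, -97.6 and -205 in OVA lung, and -204, -265 and -288 in saline lung. The closeness of agonist replicate 2 to saline lung therefore depends in part on Ngp. S100a9, Cxcr2 and Lcn2 read 128, 30.6 and 569 on agonist replicate 2, beside means of 115, 30.3 and 539 in saline lung. Ltf, a granule protein of neutrophils, read 260.3 there, against 305, 213 and 189 in OVA lung and 96.2, 91.9 and 164 in saline lung. The part of neutrophils in the Rgs2 value was not tested. Rgs3, Rgs8, Rgs11, Rgs14 and Rgs16 had no unadjusted p under 0.05 in any comparison, and Rgs11 ranged from -77.7 to 195 with overlapping groups. Rgs4, Rgs5, Rgs6, Rgs7 and Rgs9 were not tested. Rgs9, an RGS protein of photoreceptors and striatum, gave 39.5, 50.6 and 49.6 in agonist lung, 38.6, 26.9 and 37.1 in OVA lung, and 34.2, 37 and 8.98 in saline lung near the detection limit, and its agonist arrays lay above the 6 others as those of Rgs2 did.

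**Figure D5:**
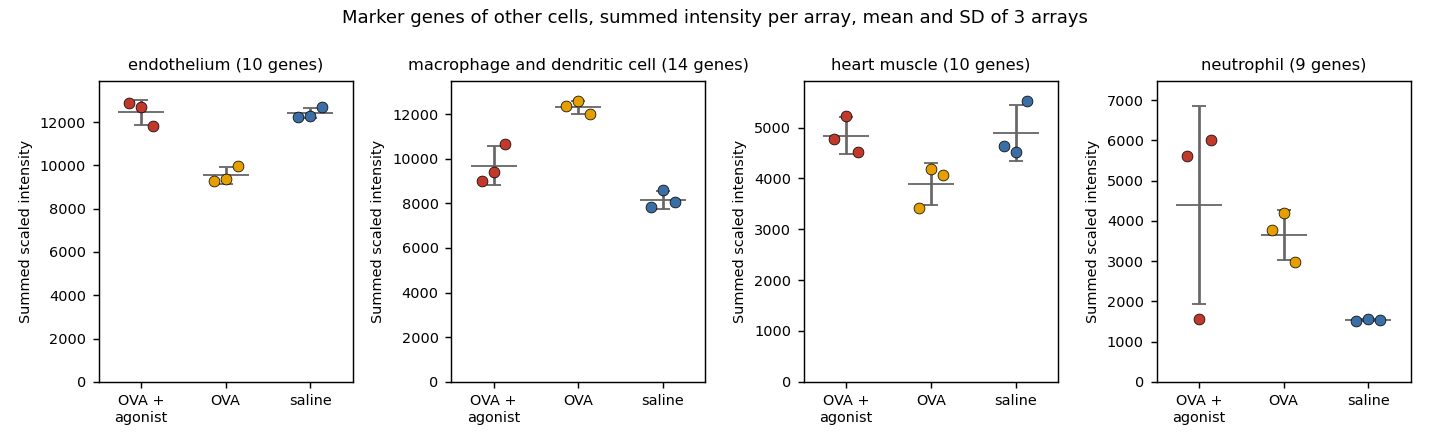
Summed scaled intensity (vertical, linear from 0) of marker genes of endothelium, macrophages and dendritic cells, heart muscle and neutrophils on each array, with the mean and SD of 3 arrays, for agonist lung (left), OVA lung (middle) and saline lung (right). Endothelium is lowest and macrophage and dendritic cell markers are highest in OVA lung, and the neutrophil sum of 1563 on agonist replicate 2 stands near saline lung. Most of the neutrophil sum in OVA lung is a single gene, Lcn2.

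The 34 member probe sets that were not tested leave 19 genes with no tested probe set. Of these probe sets 25 stayed at or below the detection limit on all 9 arrays, 7 lay at or below 0 on all 9, and the highest intensity of any was 79.0. Several belong to photoreceptors or neurons, such as the transducins Gnat1 and Gnat2, Pde6b and Pde6g, Gng4, Rgs7 and Rgs9. An intensity under the limit does not show that a gene was off in these lungs.

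The receptors and other genes of the pathway were described from 8 lists, whose counts in OVA lung against saline lung stand beside 9.49% of all tested probe sets (5.08% higher and 4.42% lower). EP3 itself (Ptger3) lay between -2.98 and 3.46 on all 9 arrays on its brighter probe set and was not tested. Of 4 tested Gs-coupled receptors, 1 passed as lower in OVA lung against saline lung: Calcrl, the receptor of adrenomedullin on endothelium, gave 615, 660.4 and 621 in agonist lung, 468, 469 and 509 in OVA lung, and 611, 623 and 667 in saline lung (-0.39 ± 0.08, adjusted p = 0.0291). Of 10 tested Gi-coupled receptors, 1 passed as higher: Ccr2, the monocyte chemokine receptor, gave 177, 225 and 385 in agonist lung, 399.8, 414 and 350.2 in OVA lung, and 159, 149 and 84.6 in saline lung (1.62 ± 0.33, adjusted p = 0.0289). The endothelial sum was lower in OVA lung, as Calcrl was, and the macrophage and dendritic cell sum was higher, as Ccr2 was. The part of these cells in both values was not tested. Of 4 tested Gq-coupled receptors, 2 passed as lower. F2r, the thrombin receptor, gave 2558, 2629 and 2354 in agonist lung, 1779, 1927 and 1997 in OVA lung, and 2396, 2356 and 2541 in saline lung (-0.36 ± 0.09, adjusted p = 0.0432). Ptgfr, the prostaglandin F receptor, gave 60.3, 60.3 and 74.4 in agonist lung, 65.4, 43.9 and 62.6 in OVA lung, and 85.8, 100.1 and 91.6 in saline lung (-0.71 ± 0.17, adjusted p = 0.0427).

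Downstream of the receptors single genes passed as well. Akap2, an anchor of protein kinase A, was lower in OVA lung against saline lung, 1 of 10 tested anchors and other cAMP effectors, at 242, 219.9 and 217 in agonist lung, 136, 186 and 182 in OVA lung, and 232, 236 and 263 in saline lung (-0.55 ± 0.14, adjusted p = 0.0452). Btk, a kinase of B and myeloid cells that G protein subunits can activate, was higher, at 80.9, 73.3 and 108 in agonist lung, 133, 134 and 109.6 in OVA lung, and 86.6, 76.5 and 71 in saline lung (0.69 ± 0.17, adjusted p = 0.043). Arhgef2, a guanine nucleotide exchange factor, was lower, at 312, 317 and 282 in agonist lung, 247, 278 and 273 in OVA lung, and 329, 347 and 354 in saline lung (-0.37 ± 0.09, adjusted p = 0.0423). They were 2 of 9 tested effectors of Gq, G12 and beta-gamma. Of 7 tested receptor kinases, arrestins and other regulators 0 passed, and of 3 tested cAMP-responsive transcription factors and coactivators 0 passed. Crem, a cAMP-responsive transcription factor, gave 148, 160.3 and 147 in agonist lung, 129, 151 and 139 in OVA lung, and 161, 185 and 188 in saline lung (-0.35 ± 0.10 in OVA lung against saline lung, adjusted p = 0.0694).

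Of 15 tested genes known to be induced by cAMP, 1 passed in each comparison with OVA lung, and it was the same gene. Pck1, the gluconeogenic enzyme that is a classic target of the cAMP response element, gave 47.5, 79.2 and 45.5 in agonist lung, 11, 23.5 and 17.1 in OVA lung, and 56, 58.8 and 44 in saline lung. All 3 OVA arrays lay below the detection limit, so only bounds on the folds can be given: at least 1.24-fold higher in agonist lung than in OVA lung (adjusted p = 0.0421) and at least 1.18-fold lower in OVA lung than in saline lung (adjusted p = 0.0245). With values held at that limit neither difference passed (adjusted p = 0.397 for agonist against OVA lung and 0.477 for OVA against saline lung). Pck1 is also made by fat, and of 3 tested adipose markers 2 passed as lower in OVA lung against saline lung and 2 as higher in agonist lung against OVA lung. The 4 adipose genes summed to 487 to 823 in agonist lung, 241 to 260.1 in OVA lung and 374 to 501 in saline lung. The part of fat in the Pck1 value was not tested.

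Of the genes on the 8 lists, Pck1 alone passed in agonist lung against OVA lung, and 0 passed in agonist lung against saline lung. Calcrl stood at 0.39 ± 0.08 in agonist lung against OVA lung (adjusted p = 0.0501) and F2r at 0.40 ± 0.09 (adjusted p = 0.0544). None of the 8 calls in OVA lung against saline lung withstood leaving out saline replicate 1, 2 or 3 or OVA replicate 1. OVA replicate 2 ended all of them but that of Pck1, and OVA replicate 3 ended those of F2r, Ptgfr, Akap2 and Arhgef2. Agonist replicate 1 ended those 4 and that of Btk, agonist replicate 2 ended the same 4, and agonist replicate 3 ended that of Akap2. The adjusted p without an array whose removal ended a call ran from 0.0545 to 0.1395. Pck1 in agonist lung against OVA lung lost its call without any array except agonist replicate 3 (adjusted p from 0.0627 to 0.131).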

How the data were processed

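As deposited, the values are linear probe-set intensities that the authors made from each array, and some lie below 0. What they subtracted, the scanner software, the summarization method and any earlier scaling are not recorded in the labels or the file headers. Each of the 9 arrays was multiplied by a factor between 0.741 and 1.29 so that its 2% trimmed mean over 12488 probe sets (138.7 to 241.2 as deposited) reached their common mean. The 66 controls were then left out, intensities under 3.10 (the 20th percentile) were raised to it, and log2 was taken. The detection limit of 44.7 is the 40th percentile. Groups were compared in limma 3.58.1 (R 4.3.3) with lmFit and eBayes, with 6 residual and 1.69 prior degrees of freedom and Benjamini-Hochberg adjustment. Where all arrays of the dimmer group lay at or below the limit, the bright group's geometric mean was divided by the limit and the fold given as "at least".

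The members and gene lists were chosen with earlier results of these data known. Named are members that passed, members with an unadjusted p under 0.05 and groups that do not overlap, the Gi, Gs, cyclase, Pde3, Pde4 and protein kinase A genes whatever their values, and list genes that passed or, where none did, some of those that changed most. The fit was also run on simulated data, with changes larger than those of the members that passed, and nothing here rests on that run. The number of arrays limits the precision.

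Alternatives were quantile normalization, equal array medians, other floors and filters, an intensity trend, array weights, a fit of the compared groups alone, a block for the replicate number, omission of single arrays, other thresholds and averaging over the probe sets of each gene. The labels do not say whether replicate numbers shared by the titles mark paired arrays, and they were not treated as pairs. Upstream sequences are RefSeq's, of build GRCm38.p6.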

Additional observations from a re-analysis of the deposited data

How the results depend on the processing

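Calls of member probe sets in OVA lung against saline lung numbered 3 (1 higher, 2 lower). They numbered 5 with a floor at the 40th percentile and 5 with a filter at the 60th percentile (2 higher in each), 6 with an intensity trend and a robust prior (2 higher, 4 lower), and 11 at an adjusted p under 0.1 (3 higher, 8 lower). With only the 6 arrays compared, with the replicate number as a block, or with a further requirement of 2-fold, 0 passed in either direction. Quantile normalization, equal array medians and no filter left 1 lower call, and averaging the probe sets of each gene left 0 higher calls. Leaving out 1 array gave 0 to 3 calls, 0 to 2 of them higher and 0 to 1 lower. In agonist lung against OVA lung 0 passed, against 3 (all higher) with the floor at the 40th percentile, the filter at the 60th, the trend or array weights, 6 at an adjusted p under 0.1 (5 higher, 1 lower), and 0 to 0 with 1 array left out. In agonist lung against saline lung leaving out 1 array gave 0 to 1, the 1 higher call being Gnasas1 without OVA replicate 1.

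The member median in agonist lung against OVA lung became 0.0069 without a filter and 0.014 with the filter at the 60th percentile. In agonist lung against saline lung it became -0.025 with equal medians, -0.013 without a filter, -0.036 with the stricter filter and -0.052 with gene means. With 1 array left out the median ran from -0.16 to -0.078 in OVA lung against saline lung, from 0.038 to 0.13 in agonist lung against OVA lung, and from -0.066 to -0.0051 in agonist lung against saline lung. Of 51 named values recomputed 1004 times, 858 kept direction and side of the threshold, 119 lost and 24 gained a call, and 3 turned direction, all on averaging the probe sets of each gene: Gnao1 (0.19) and Gnb1 94853_at (-0.0011) in OVA lung against saline lung and Gnb1 94854_g_at (-0.069) in agonist lung against OVA lung.

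Deviations of arrays that share a replicate number correlated at 0.169, 0.112 and 0.0354 between OVA and saline lung. The values were -0.0661, 0.0069 and -0.0487 between agonist and OVA lung, and -0.0302, 0.0779 and -0.139 between agonist and saline lung. OVA and saline arrays of different numbers correlated at -0.154 to 0.0438. The numbers were not taken as pairs, and whether they mark pairs is not known. With the replicate number as a block all 3 calls in OVA lung against saline lung ended. Where scaling, filter or block ended a call, the cause was not tested. Probe sets near the detection limit, such as those of Adcy3, Adcy8, Gnasas1 and Pck1, carry wide errors.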

Other observations

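Of the 59 tested member probe sets 9 (15.3%) had their highest array under the same replicate number in all 3 groups, beside 11.7% (923) of all 7920. For Gng2, a gamma subunit of leukocytes, replicate 3 read 175 in agonist lung, 144 in OVA lung and 173 in saline lung, while the other 6 arrays lay between 67.2 and 80.1. Gnaq, Prkar2a and Gng12 99477_at also had replicate 3 highest in all groups, and Adcy4, Pde4b, Pde6a and Rgs11 had replicate 2 highest. Adcy9 98356_at had replicate 1 highest.

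A probe set named for both Gng5, a gamma subunit, and its pseudogene Gng5-ps lies outside the naming rule because it carries several symbols. It gave 2805, 2769.8 and 2779 in agonist lung, 2457, 2708 and 2689.6 in OVA lung, and 2539, 2702 and 2651 in saline lung. All agonist arrays exceeded the 6 others, and it passed in none of the comparisons (adjusted p = 0.508 in agonist lung against OVA lung).

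Ptger4, the receptor EP4 that raises cAMP through Gs, was not tested because no more than 2 arrays exceeded the detection limit. It gave 1.52, 14.4 and 10.4 in agonist lung, 80.4, 75.3 and 33.1 in OVA lung, and 12.9, 9.24 and 12.5 in saline lung. The 3 OVA arrays lay above the 6 others.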
